A study of Bos grunniens with 18 samples.

Results

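The ribosome biogenesis genes of yak blood were taken as the genes that the deposited annotation places in the KEGG pathway "Ribosome biogenesis in eukaryotes" and in neither the ribosome pathway nor the spliceosome pathway, provided that they had 10 or more counts in at least 6 libraries. Of the 20607 genes in the deposited table, 92 list the pathway. SNU13, which also belongs to the spliceosome, was left out, and of the 91 genes that remained the count minimum removed 3, so that 88 members were described. The members nearest to the count minimum were a second POP1 orthologue (ENSBGRG00000004949), which reached 10 counts in 6 libraries, and an exonuclease gene (ENSBGRG00000001020), which reached it in 9 libraries. Among the genes left out, ENSBGRG00000026330 reached 10 counts in 2 libraries, and ENSBGRG00000018278 and ENSBGRG00000019763 in 0.

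The pathway name covered most but not all members. For 79 members, a role in ribosome biogenesis was assigned from general knowledge of the gene name or of the annotated orthologue. Some of these, such as XRN1 and DROSHA, are better known for other RNA processing. By annotated type, 85 of the 88 members were protein coding. Among the 79 were 2 pseudogenes (ENSBGRG00000008895 and ENSBGRG00000015303) and 1 long non-coding RNA (ENSBGRG00000015271). The other 9 members carried names of proteins with another known or proposed function, namely CFDP1, NUDT6, SLC27A1, TANGO6, TMEM120A, TMEM120B, TMEM203, VSTM2L and VWA8. Counts are therefore given for all members and for those with a biogenesis role. Of the 88 members, 20 have only an identifier and are named here as the orthologue that the annotation gives. The 88 members fall under 62 orthology entries, of which 20 are shared by 2 or more members, and reads of such near-copies could have been split between them.

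The samples were whole blood of yaks (Bos grunniens), drawn into EDTA tubes in anestrus (Y-A group), estrus (Y-E group) and pregnancy (Y-P group), with 6 libraries in each of the 3 groups. All animals were adult cows aged 4 to 8 years from a herd bred by timed artificial insemination after estrus synchronisation with a progesterone pessary, cloprostenol and gonadotropin-releasing hormone, and 6 cows in their second year of calving were followed through the stages. The day of pregnancy is not given in the sources used here, and the 3 stages follow each other in time, so that stage and sampling date cannot be told apart. The total count of a library ranged from 30247267 to 48401076.

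Ribosome biogenesis is the assembly of the small and the large ribosomal subunit from ribosomal RNA (rRNA) and ribosomal proteins. It begins in the nucleolus, where RNA polymerase I transcribes a long precursor that the small-subunit processome folds and cleaves, while small nucleolar ribonucleoproteins (snoRNPs) guide its chemical modification. GTPases and AAA ATPases then remodel the large subunit, exportins carry both particles to the cytoplasm, and the last assembly factors leave there. In blood the pathway is best known from lymphocytes that leave the resting state and from early red cell precursors, in which inherited defects of it cause anemia and marrow failure.

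All 88 members together took up a small share of each library, and the share was largest in the Y-P group. It ran from 0.329% to 0.405% of all counts in the Y-A group, with a median of 0.376%. In the Y-E group, it ran from 0.303% to 0.403%, with a median of 0.336%. The Y-P libraries held 0.414% to 0.467%, with a median of 0.451%. Each Y-P library thus lay above each library of the other stages, and the Y-A and Y-E groups overlapped. Hemoglobin transcripts, which took up 3.10% to 16.7% of counts in the Y-A group and 0.0272% to 0.376% in the Y-P group, are part of this total. When they were left out of it, the highest Y-A library, at 0.421%, lay above the lowest Y-P library, at 0.415%. The share was taken on raw counts, without the TMM factors used below. These factors ran from 0.871 to 1.05 in the Y-A group, from 0.921 to 1.07 in the Y-E group and from 1.03 to 1.12 in the Y-P group. On the TMM-scaled levels below, the members' median in Y-P replicate 6 lay within the Y-A range, so the separation was not complete.

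The single most abundant member was an orthologue of UTP14, a helicase cofactor of the small-subunit processome (ENSBGRG00000007171), at a mean of 121 FPKM (fragments scaled to exon length and to the mapped reads of the library). It was followed by CSNK2B, the regulatory subunit of casein kinase 2, at 70.6 FPKM, and by IMP4, a U3 snoRNP protein, at 58.1 FPKM. The nuclear exonuclease XRN2 had 53.1 FPKM. Over the 88 members the median of the mean FPKM was 11.3, and 4 members lay under 1 FPKM. Of the 88, 80 had 10 or more counts in each library.

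**Figure D1:**
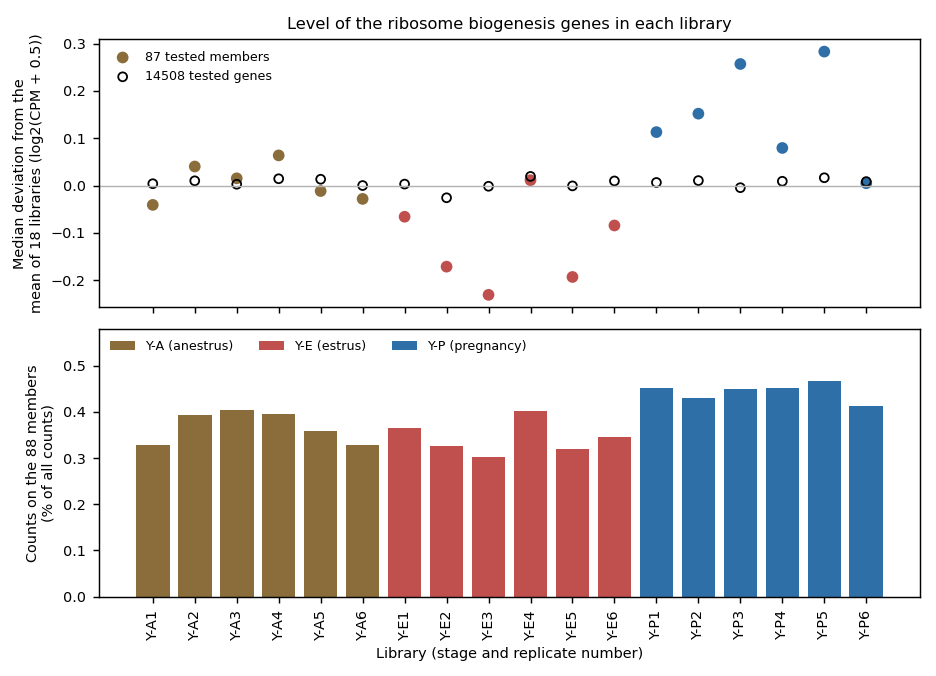
The upper panel plots, for each of the 18 libraries, medians of the deviation of log2(CPM + 0.5) from the gene's mean. Filled points (labelled as 87 tested members) are medians over the 78 of them with a biogenesis role. Open circles are medians over the 14508 tested genes. The lower panel gives the share of all raw counts that fell on the 88 members (bars, in percent). The member medians of 5 Y-P libraries lie above those of all other libraries, Y-P replicate 6 lies near 0, and 5 of the 6 Y-E libraries lie below those of all other libraries.

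Library by library, the members moved away from the other genes mainly in the Y-E and Y-P groups. The deviation of each member from its mean over the 18 libraries was taken on the scale log2(CPM + 0.5), where CPM is the gene's count scaled to a common library size after TMM normalization. Its median was computed over the 78 tested members with a biogenesis role. This median ran from −0.04 to 0.06 in the Y-A group, from −0.23 to 0.01 in the Y-E group and from 0.00 to 0.28 in the Y-P group. Over all 14508 tested genes the same median stayed between −0.03 and 0.02 in each library. Among all 87 tested members, Y-P replicates 5 and 3 held the highest value of 21 and 16 members. The lowest values lay most often in Y-E replicates 3 and 2, with 15 and 13 members. Such counts were not made over all genes.

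Comparisons between stages were made with edgeR's quasi-likelihood test on the deposited counts of all 18 libraries. A member was called at a Benjamini-Hochberg adjusted p under 0.05 over all 14508 tested genes. Where edgeR is named below, this main fit with TMM factors and without a replicate block is meant. Of the 88 members, 87 passed the expression filter of this test, the second POP1 orthologue being the exception. All 3 comparisons rest on the same 3 groups, so that any 2 of them share 6 libraries. In blood, fewer cells of a type and less RNA per cell cannot be told apart.

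In estrus against anestrus, no member passed the test. Of the 87 members 0 were called, where 0.0207% of all tested genes were, all of them lower. DESeq2 and limma on FPKM values also called 0 members. Of all 14508 genes, DESeq2 called 56 higher and 11 lower, and limma 0 higher and 4 lower. None of the 87 passed the adjusted p together with a 2-fold change, which 0.0138% of all genes did. At an unadjusted p under 0.05, 1 member lay higher and 6 lower, against 4.37% and 1.83% of all genes (6.20% in both directions). The members' median log2 fold change was −0.10, against −0.01 for all genes, and 24 of 87 members had a fold change above 0, against 48.3% of all genes. The ranges of both stages overlapped for all 87 members, while 0.131% of all genes lay higher and 0.172% lower without overlap.

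In pregnancy against anestrus, 2 members rose and 1 fell. The risers were TBL3 and PWP2, both components of the UTP-B complex, and RCL1, a processome protein related to RNA cyclases, fell. These 3 calls make 3.45% of the members, where 5.83% of all genes were called (2.22% higher and 3.61% lower), so the share lay under the background. None of the 87 also reached the 2-fold change that the study required, which 1.43% of all genes did. The median log2 fold change of the members was 0.16, against 0.03 for all genes, and 66 of 87 members lay above 0, against 53.5% of all genes. At an unadjusted p under 0.05, 17 members lay higher and 3 lower, against 10.9% and 11.8% of all genes (22.7% in both directions). The Y-P and Y-A libraries did not overlap for 3 higher members (DKC1, PWP2 and TBL3) and 0 lower ones, against 1.23% and 2.32% of all genes.

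These few calls depended on single libraries. The count of higher members was 0 without Y-A replicate 5 or Y-P replicate 2, 1 without Y-A replicates 4 or 6, or Y-P replicate 3, and 4 without Y-P replicates 1 or 6. The share of all genes called higher, 2.22% in the full fit, moved as well. It was 1.39%, 1.04% and 0.975% without Y-A replicates 4, 5 and 6. Without Y-P replicates 1, 2, 3 and 6 it was 2.86%, 0.921%, 1.56% and 1.93%. The fall of RCL1 lost its call without Y-A replicates 5 or 6, or Y-P replicates 1, 2, 4 or 5. Scaled by library size alone instead of TMM, 10 members were higher and 1 lower, but 7.41% of all genes were then called higher. The median of all genes moved from 0.03 to 0.19 and the members lay 0.12 above it, beside 0.13 with TMM.

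In pregnancy against estrus, 15 members rose and 1 fell. The 15 comprised TBL3, PWP2, UTP18, IMP4, NAT10 and the MPHOSPH10 orthologue of the small-subunit processome, the snoRNP proteins NOP56 and DKC1, the RNA-cleaving factors XRN2 and RPP30, and GTPBP4, GNL3, NVL, LSG1 and an SBDS orthologue of the large subunit. The member that fell, TMEM120A, is one of the 9 named for another function. The higher calls made 17.2% of the members, where 5.77% of all genes were called higher, and the 1 lower call stood against 8.68% of all genes called lower. In both directions together, 18.4% of the members and 14.4% of all genes were called. Among the 78 tested members with a biogenesis role, 15 rose and 0 fell, the latter with 1 lower at an unadjusted p under 0.05 and 0 lower by DESeq2. Of all 14508 genes, DESeq2 called 1608 lower in this comparison.

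The changes were small in size. Fold changes of the 15 risers lay between 1.28 and 1.59, and 0 of the 87 members reached the study's 2-fold threshold together with the adjusted p, which 2.67% of all genes did. The median log2 fold change was 0.26 for the members and 0.04 for all genes, and 72 of 87 members lay above 0, against 53.7% of all genes. At an unadjusted p under 0.05, 32 members lay higher and 2 lower, against 14.2% and 15.1% of all genes (29.3% in both directions). With library size alone instead of TMM, 29 members were higher and 0 lower, where 12.4% of all genes were called higher. The median of all genes was then 0.18 and that of the members lay 0.21 above it, as with TMM. Without any overlap between the stages, 4 members lay higher (DKC1, IMP4, LSG1 and XRN2) and 0 lower, against 2.19% and 3.84% of all genes.

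Of these 16 calls, 7 held in each of the 18 fits that left out 1 library: DKC1, GNL3, PWP2, IMP4, GTPBP4, NOP56 and the MPHOSPH10 orthologue. The count of higher members was 7 without Y-E replicate 2 and 8 without Y-E replicates 3 or 5, or Y-P replicates 3 or 5. The share of all genes called higher, 5.77% in the full fit, was also lower in these fits. It was 3.25%, 3.47% and 3.25% without Y-E replicates 2, 3 and 5, and 4.46% and 4.03% without Y-P replicates 3 and 5. TMEM120A lost its call without any of these 5 libraries and also without Y-P replicates 1, 4 or 6. Y-E replicate 6, whose hemoglobin share of 8.36% stood apart from the 0.0899% to 0.713% of the other Y-E libraries, did not set the counts: without it 15 members were higher and 1 lower, and in the other comparisons the counts stayed at 2 higher and 1 lower (pregnancy vs. anestrus) and 0 (estrus vs. anestrus). The calls of TBL3 and NAT10 in pregnancy against estrus were lost without it.

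**Figure D2:**
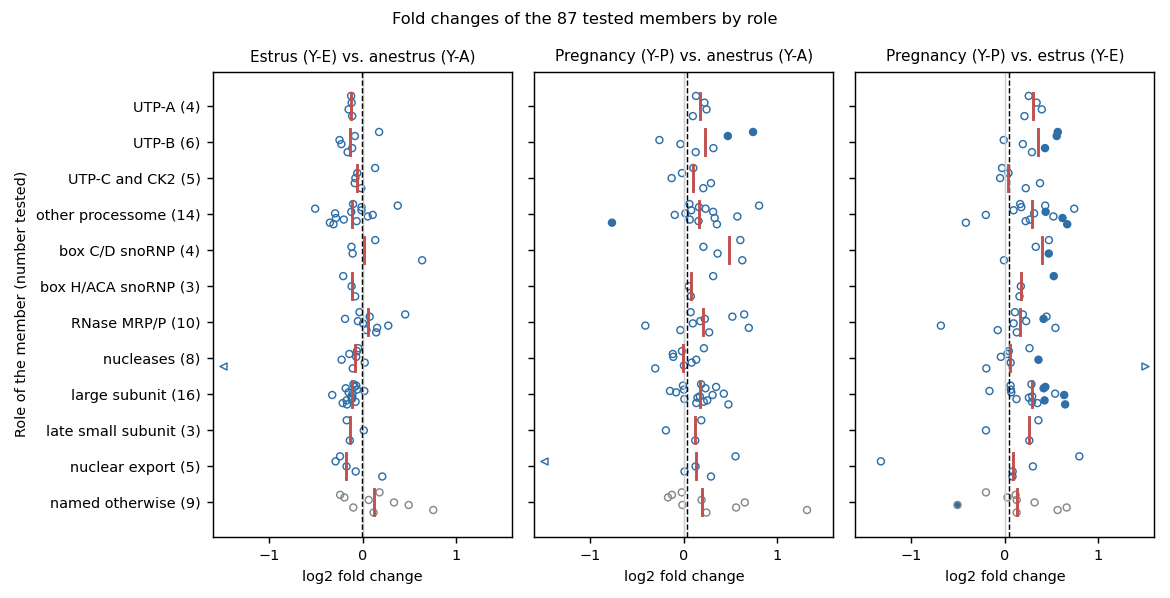
Log2 fold changes of the 87 tested members in the 3 comparisons, one row per role with the number tested in brackets. Filled points are members called at an adjusted p under 0.05, the red bar is the median of the role, the dashed line the median of all 14508 genes, grey outlines the 9 members named for another function, and triangles values outside ±1.5. Filled points are absent in estrus against anestrus, number 3 in pregnancy against anestrus and 16 in pregnancy against estrus, of which 15 lie to the right of 0.

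The small-subunit processome assembles on the nascent precursor from preformed complexes named UTP-A, UTP-B and UTP-C. In UTP-B, 3 of the 6 tested members rose in pregnancy against estrus, where 5.77% of all genes did, and 2 of 6 in pregnancy against anestrus, where 2.22% did. The gene TBL3 (chromosome 26, 46201227 to 46209134, minus strand) encodes a WD-repeat subunit. Its level ran from 13.5 to 28.6 CPM in the Y-A group (median 23.9), from 19.3 to 30.6 CPM in the Y-E group (median 23.3) and from 30.3 to 48.8 CPM in the Y-P group (median 33.6). Each Y-P library lay above each Y-A library, while the lowest Y-P library lay just under the highest Y-E library and Y-P replicate 2 stood highest. The log2 fold change was 0.74 ± 0.18 (SE, 6 libraries per stage) in pregnancy against anestrus, with an adjusted p of 0.0224, and 0.57 ± 0.18 in pregnancy against estrus, with an adjusted p of 0.0375. TBL3 overlaps NOXO1, a gene on the other strand, and whether the counting used strand is not given in the sources used here.

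PWP2, another WD-repeat subunit of UTP-B (chromosome 1, 157277035 to 157292085, plus strand), overlaps no other gene. Its range was 22.6 to 30.5 CPM in the Y-A group (median 26.6), 21.8 to 30.8 CPM in the Y-E group (median 24.2) and 30.6 to 43.1 CPM in the Y-P group (median 36.6). The Y-P and Y-A ranges just failed to meet, and 1 Y-E library reached into the Y-P range. PWP2 was higher by 0.47 ± 0.12 in pregnancy against anestrus (adjusted p = 0.0271) and by 0.55 ± 0.12 in pregnancy against estrus (adjusted p = 0.00457). The third riser of the complex, UTP18, had medians of 41.7, 36.9 and 48.6 CPM in anestrus, estrus and pregnancy and a log2 fold change of 0.43 ± 0.14 in pregnancy against estrus (adjusted p = 0.0477), with overlapping ranges.

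UTP6, of the same complex, was its most abundant member, with a mean of 31.5 FPKM, and followed another order. Its libraries ran from 139 to 203 CPM in the Y-A group (median 178), 126 to 169 CPM in the Y-E group (median 141) and 124 to 165 CPM in the Y-P group (median 150). The Y-A group was highest here, with overlapping ranges. The log2 fold changes were −0.25 ± 0.11 in estrus against anestrus and −0.26 ± 0.11 in pregnancy against anestrus, with adjusted p of 0.734 and 0.160, so neither was called. UTP6 overlaps 3 unnamed genes on its strand.

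UTP-A, which joins the precursor first and is also tied to its transcription, had 4 tested members and 0 calls by edgeR in any comparison. All 4 fold changes lay above 0 in pregnancy against estrus and 3 of them reached an unadjusted p under 0.05. Of all genes, 53.7% lay above 0 and 14.2% were higher at that p. WDR43, the most abundant of them by FPKM (19.0), ran from 43.0 to 58.8 CPM in the Y-E group and from 52.8 to 78.8 CPM in the Y-P group, a log2 fold change of 0.40 ± 0.13 with an adjusted p of 0.0535. DESeq2 called it, and over all settings its adjusted p ran from 0.0228 to 0.118. HEATR1, a large scaffold protein of UTP-A, had a log2 fold change of 0.26 ± 0.11 in pregnancy against estrus with an adjusted p of 0.122. Limma on FPKM and the fit with library size alone called WDR43, UTP4 and HEATR1 higher in that comparison. Of all genes, limma called 15.6% and 16.5% higher (pseudocounts 0.1 and 1), and library size alone 12.4%.

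UTP-C with casein kinase 2, a kinase with many other substrates, also had 0 calls in its 5 tested members, by edgeR and by DESeq2 alike. Among these, RRP7A reached an unadjusted p under 0.05 in pregnancy against estrus, where limma on FPKM called it higher. CSNK2B had stage medians of 57.8, 56.8 and 59.2 CPM in anestrus, estrus and pregnancy, and CSNK2A2, a catalytic subunit, had 32.1, 31.2 and 31.0 CPM. Their log2 fold changes in pregnancy against estrus were −0.03 ± 0.16 and 0.04 ± 0.10. NOL6, an RNA-binding subunit, had a fold change of 0.22 ± 0.14 (log2, adjusted p = 0.306).

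Among the 14 other processome factors, 3 rose in pregnancy against estrus, where 5.77% of all genes did, and 1 fell in pregnancy against anestrus, where 3.61% did. IMP4 (chromosome 2), which joins U3 snoRNA to the precursor, ran from 44.6 to 68.1 CPM in the Y-A group (median 57.6), from 41.2 to 50.9 CPM in the Y-E group (median 45.5) and from 52.3 to 108 CPM in the Y-P group (median 65.7). The Y-E libraries all lay under the Y-P libraries, and the highest of the 18 values was that of Y-P replicate 2. The log2 fold change in pregnancy against estrus was 0.67 ± 0.15, the largest of the 15 risers, with an adjusted p of 0.00604. Its partner IMP3 was not called by edgeR or DESeq2, but was called higher in pregnancy against anestrus by limma on FPKM and with library size alone. It ran from 3.76 to 13.8 CPM in the Y-A group, 6.20 to 17.0 CPM in the Y-E group and 11.7 to 22.9 CPM in the Y-P group, and its log2 fold change of 0.81 ± 0.30 in pregnancy against anestrus had an adjusted p of 0.118. IMP3 overlaps SNUPN on the same strand.

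The orthologue of MPHOSPH10 (ENSBGRG00000008537, chromosome 17), the scaffold of IMP3 and IMP4, had ranges of 22.2 to 30.2, 15.6 to 24.6 and 22.5 to 45.0 CPM in anestrus, estrus and pregnancy. The Y-E group was lowest, and the 2 highest Y-E libraries lay within the Y-P range. Its log2 fold change in pregnancy against estrus was 0.62 ± 0.16 (adjusted p = 0.0129). NAT10, the acetyltransferase that modifies cytidines of the small subunit's rRNA, had 37.9 to 56.1, 33.3 to 56.1 and 47.7 to 66.9 CPM, and a log2 fold change of 0.44 ± 0.14 in pregnancy against estrus (adjusted p = 0.0378). Its call was lost without Y-A replicate 1, Y-E replicates 2, 3, 5 or 6, or Y-P replicates 2, 3, 4 or 5.

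RCL1 (chromosome 7, 80794145 to 81022531, plus strand) went the other way. Its level ran from 34.6 to 78.8 CPM in the Y-A group (median 42.4), from 24.5 to 49.8 CPM in the Y-E group (median 33.6) and from 23.9 to 34.7 CPM in the Y-P group (median 26.3). Y-A replicate 6 held the highest value, and the lowest Y-A library lay just under the highest Y-P library. The log2 fold change in pregnancy against anestrus was −0.77 ± 0.21 (adjusted p = 0.0354), and in pregnancy against estrus it was −0.42 ± 0.21 (adjusted p = 0.184). The gene spans MIR101-2 and an unnamed gene on the other strand. The summed level of 7 red cell genes was likewise highest in the Y-A group, with stage medians of 2026, 232 and 146 CPM, and its part in the level of RCL1 was not tested.

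TCOF1, which links the polymerase to processing and is mutated in Treacher Collins syndrome, had stage medians of 88.4, 91.3 and 100.4 CPM and no call. The UTP14 orthologue on chromosome X had 307 to 384, 260 to 323 and 278 to 480 CPM in anestrus, estrus and pregnancy, with a log2 fold change of 0.27 ± 0.12 in pregnancy against estrus and an adjusted p of 0.151. EdgeR called none of the 7 copies of FCF1, UTP14 and EMG1 orthologues, among them the pseudogene ENSBGRG00000008895, in any comparison. Limma on FPKM and the fit with library size alone called the UTP14 orthologue on chromosome X higher in pregnancy against estrus. The 2 EMG1 orthologues overlap each other on chromosome 5.

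**Figure D3:**
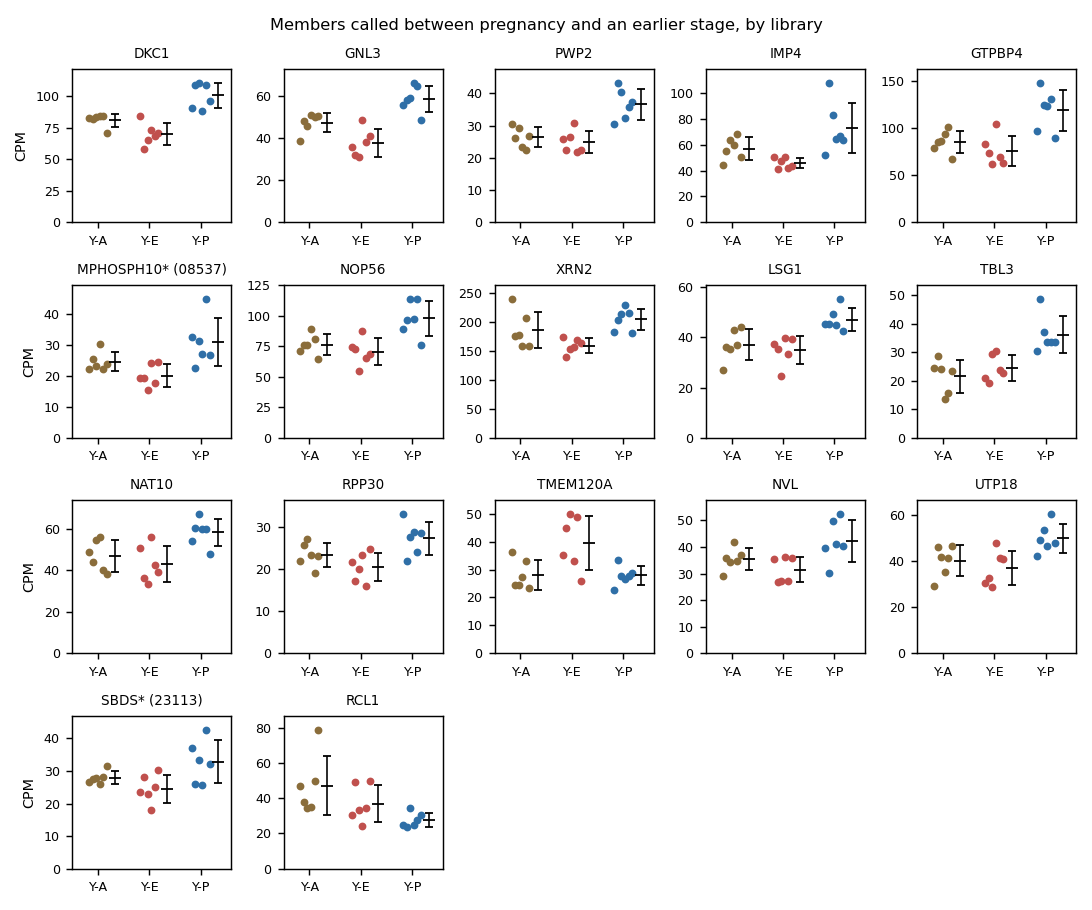
Level (CPM after TMM normalization, linear axis from 0) of the 17 members called between pregnancy and estrus or anestrus, one point per library, with the mean and SD of the 6 libraries of a stage beside them; an asterisk marks an orthologue named from the annotation, with the end of its identifier. DKC1 is highest in all 6 Y-P libraries, and RCL1 and TMEM120A are the 2 panels in which the Y-P group is not the highest.

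The snoRNP proteins bind guide RNAs that place methyl groups (box C/D) and pseudouridines (box H/ACA) on the rRNA. DKC1, the pseudouridine synthase that is mutated in X-linked dyskeratosis congenita, lies on chromosome X (38643215 to 38656821, minus strand). Its level ran from 70.6 to 84.2 CPM in the Y-A group (median 82.9), from 58.6 to 84.0 CPM in the Y-E group (median 69.5) and from 88.7 to 110 CPM in the Y-P group (median 103). All 6 Y-P libraries lay above the 12 others, and Y-A replicate 6 lay apart from the other Y-A libraries. DKC1 was higher by 0.52 ± 0.09 in pregnancy against estrus (log2, adjusted p = 0.00171), the smallest p of any member. In pregnancy against anestrus the log2 fold change was 0.31 ± 0.09 with an adjusted p of 0.0542, so that the stages did not overlap although the test was missed; over all settings this p ran from 0.00572 to 0.167. DKC1 overlaps 2 unnamed genes on its strand.

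The other H/ACA proteins did not show the order of DKC1. NHP2 ran from 8.25 to 16.1, from 10.7 to 13.2 and from 7.31 to 20.7 CPM in anestrus, estrus and pregnancy, and GAR1 from 11.1 to 20.4, from 10.9 to 18.1 and from 9.14 to 21.5 CPM. The Y-P group held both the lowest and the highest value of each. Their log2 fold changes in pregnancy against estrus were 0.17 ± 0.22 and 0.16 ± 0.20, and the adjusted p were 0.664 and 0.657.

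Of the 4 box C/D proteins, 1, NOP56, rose in pregnancy against estrus, beside 5.77% of all genes. It ran from 64.4 to 89.2 CPM in the Y-A group (median 75.8), from 54.7 to 87.2 CPM in the Y-E group (median 71.0) and from 76.0 to 114 CPM in the Y-P group (median 97.0). The Y-P group was highest, but its lowest library lay within both other ranges. In pregnancy against estrus the log2 fold change was 0.47 ± 0.12 (adjusted p = 0.0141). NOP56 shares its locus with IDH3B on the other strand and with several snoRNA genes on its own strand. Its partner NOP58 had 0.33 ± 0.13 in the same comparison (adjusted p = 0.0997).

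FBL, the methyltransferase fibrillarin, varied widely within the Y-P group. Its 6 Y-P libraries ran from 28.2 to 87.2 CPM, and replicates 2 and 3 stood at 87.1 and 87.2 CPM, while the Y-A group ran from 20.4 to 45.1 CPM and the Y-E group from 25.5 to 49.9 CPM. The ranges overlapped, and the log2 fold changes of 0.60 ± 0.28 in pregnancy against anestrus and 0.47 ± 0.28 in pregnancy against estrus had adjusted p of 0.198 and 0.276. FBL overlaps DYRK1B on the same strand, so that reads of both could have been mixed.

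Ribonucleases cut and trim the precursor. RNase MRP, which shares most of its proteins with the tRNA-processing RNase P, had 10 tested members, of which 1, RPP30, rose in pregnancy against estrus, beside 5.77% of all genes. These 10 include the pseudogene ENSBGRG00000015303 and the long non-coding RNA ENSBGRG00000015271, which overlap each other. RPP30 ran from 19.0 to 27.2 CPM in the Y-A group, from 16.1 to 24.7 CPM in the Y-E group and from 22.0 to 33.1 CPM in the Y-P group, with a log2 fold change of 0.41 ± 0.13 and an adjusted p of 0.0390 in pregnancy against estrus. The Y-P and Y-E ranges overlapped. RPP40, at 1.34 FPKM one of the least abundant subunits, ran from 1.92 to 3.33 CPM in the Y-A group and from 2.76 to 4.66 CPM in the Y-P group; its log2 fold change of 0.69 ± 0.23 in pregnancy against anestrus was called by DESeq2 but had an adjusted p of 0.0734 with edgeR. POP1, the largest protein of both enzymes, had medians of 15.5, 15.0 and 14.6 CPM.

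The nuclear exonuclease XRN2 (chromosome 12, 32178700 to 32247598, plus strand) was the 1 of 8 other nucleases that rose in pregnancy against estrus, beside 5.77% of all genes. It ran from 159 to 241 CPM in the Y-A group (median 177), from 140 to 175 CPM in the Y-E group (median 161) and from 182 to 229 CPM in the Y-P group (median 209). All Y-P libraries lay above all Y-E libraries, whereas Y-A replicate 1 was the highest of the 18. The log2 fold change in pregnancy against estrus was 0.36 ± 0.11 (adjusted p = 0.0289), the smallest of the 15 risers. The call was lost without Y-E replicates 2 or 3, or Y-P replicates 3, 4 or 5.

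XRN1, the cytoplasmic relative of XRN2 that mainly degrades messenger RNA, did not share this order. It ran from 122 to 147 CPM in the Y-A group, from 103 to 156 CPM in the Y-E group and from 68.2 to 163 CPM in the Y-P group, and its log2 fold change in pregnancy against estrus was −0.20 ± 0.17 (adjusted p = 0.475). DROSHA, known for microRNA processing, had the lowest coefficient of variation of any member in the Y-A group, 3.24%, where the median over the members was 16.7%. Its medians were 38.2, 35.5 and 34.6 CPM. The exonuclease gene ENSBGRG00000001020 had few counts in each library: the Y-A group ran from 6 to 20 counts and the Y-P group from 0 to 36 counts (0 to 1.06 CPM), and 4 of 6 Y-E libraries had 0 counts, with 3 counts corresponding to 0.0620 to 0.0992 CPM.

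**Figure D4:**
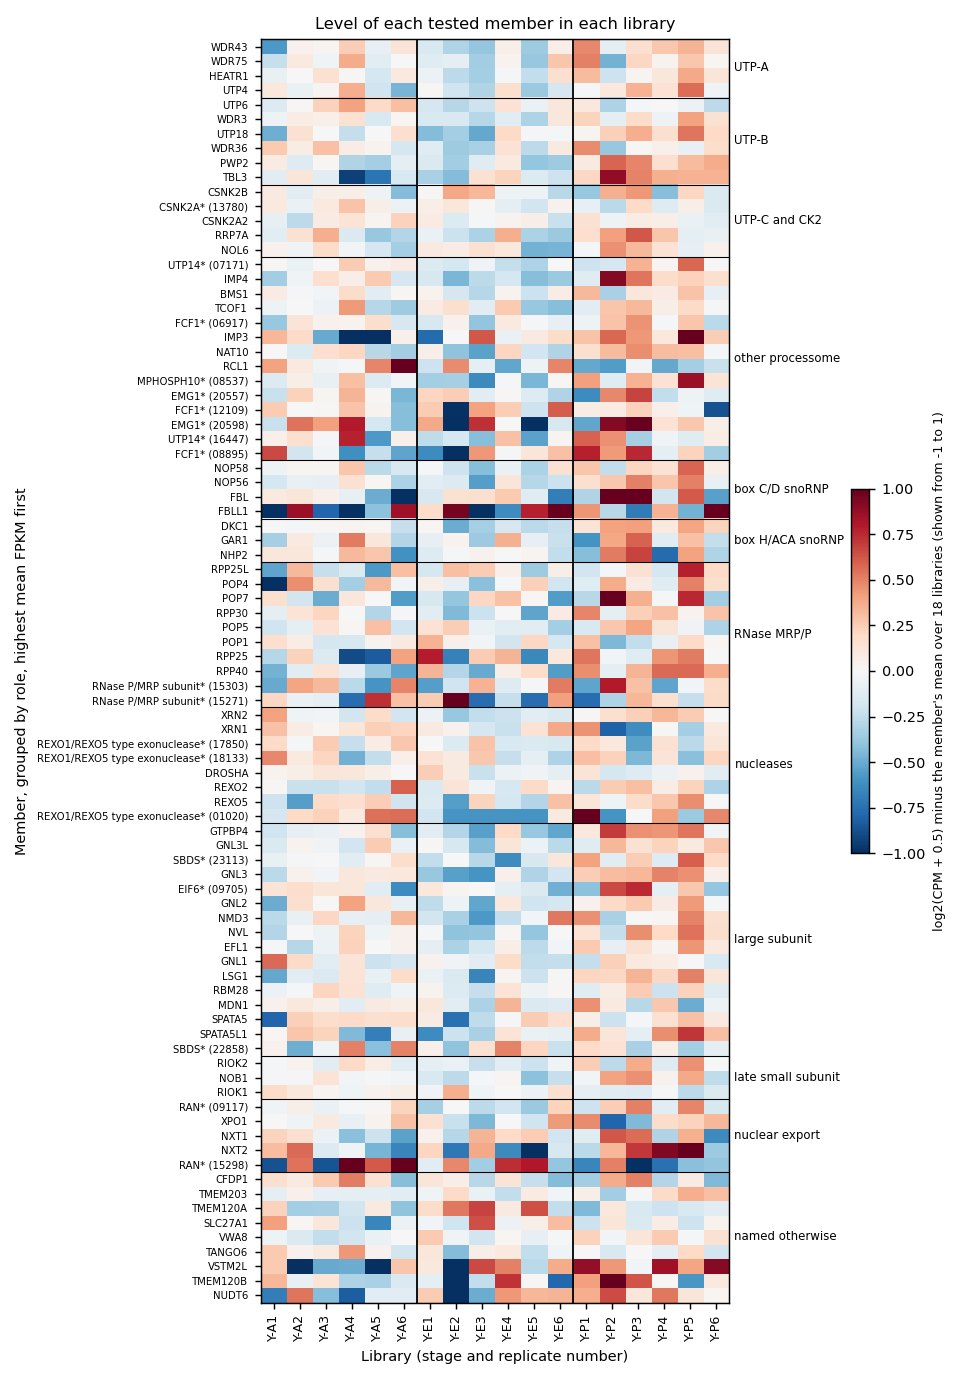
Each row is 1 of the 87 tested members, grouped by role, and each column 1 of the 18 libraries; the color gives log2(CPM + 0.5) minus the member's mean over the 18 libraries, shown from −1 (blue) to 1 (red). The columns of Y-P replicates 3 and 5 are mostly red, with medians of 0.26 and 0.28 over the 78 members with a biogenesis role. Those of Y-E replicates 2, 3 and 5, with such medians of −0.17, −0.23 and −0.19, are mostly blue. The rows of RCL1 and RIOK1 are blue in most Y-P columns.

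Of the 16 tested members that assemble and release the large subunit, 5 rose and 0 fell in pregnancy against estrus, where 5.77% of all genes were called higher and 8.68% lower. At an unadjusted p under 0.05, 9 were higher and 0 lower, against 14.2% and 15.1% of all genes. DESeq2 called 7 higher and 0 lower, where it called 8.12% of all genes higher and 1608 of the 14508 lower. GNL3, the nucleolar GTPase nucleostemin (chromosome 22, 14389385 to 14395613, plus strand), ran from 38.8 to 50.7 CPM in the Y-A group (median 48.9), from 30.8 to 48.5 CPM in the Y-E group (median 36.8) and from 48.4 to 65.9 CPM in the Y-P group (median 58.4). Y-E replicate 4 alone reached the lowest Y-P library. The log2 fold change was 0.63 ± 0.12 (adjusted p = 0.00190). In estrus against anestrus it was −0.33 ± 0.12, with an unadjusted p of 0.0111 and an adjusted p of 0.569. GNL3 hosts 3 snoRNA genes on its strand.

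GTPBP4, the nucleolar GTPase of early large-subunit particles (chromosome 12), ran from 67.0 to 101 CPM in the Y-A group (median 85.7), from 61.9 to 104 CPM in the Y-E group (median 71.3) and from 88.7 to 147 CPM in the Y-P group (median 124). The same Y-E replicate 4 reached into the Y-P range. In pregnancy against estrus the log2 fold change was 0.65 ± 0.14 (adjusted p = 0.00644), and in pregnancy against anestrus 0.48 ± 0.14 (adjusted p = 0.0559). GNL3L, the vertebrate paralogue of GNL3 on chromosome X, had 0.28 ± 0.11 in pregnancy against estrus (adjusted p = 0.0799).

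LSG1, the cytoplasmic GTPase that frees the export adaptor NMD3 (chromosome 1, 79171011 to 79197825, plus strand), had 27.2 to 44.2 CPM in the Y-A group, 24.4 to 39.6 CPM in the Y-E group and 42.4 to 55.4 CPM in the Y-P group. The Y-P libraries all lay above the Y-E libraries. Its log2 fold change in pregnancy against estrus was 0.43 ± 0.13 (adjusted p = 0.0315), a call lost without Y-E replicates 2, 3 or 5, or Y-P replicates 3 or 5. NMD3 itself, whose ranges overlapped in all stages, had 0.26 ± 0.18 (adjusted p = 0.362).

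NVL, an AAA ATPase of the nucleolus, had 29.1 to 41.8, 27.0 to 36.1 and 30.3 to 52.3 CPM in anestrus, estrus and pregnancy and a log2 fold change of 0.42 ± 0.13 in pregnancy against estrus (adjusted p = 0.0404). Leaving out each library in turn kept its call in 8 of 18 fits. MDN1, the giant ATPase that strips factors from the particle, did not follow: its medians were 159, 140 and 155 CPM and its log2 fold change was 0.06 ± 0.14.

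The last step of large-subunit maturation is the removal of the anti-association factor EIF6 by SBDS and the GTPase EFL1. The SBDS orthologue on chromosome 26 (ENSBGRG00000023113) had medians of 27.7, 24.2 and 32.8 CPM and a log2 fold change of 0.41 ± 0.14 in pregnancy against estrus (adjusted p = 0.0492), which kept its call in 3 of those 18 fits. A second SBDS orthologue (ENSBGRG00000022858) with 1.79 FPKM had −0.16 ± 0.29. EFL1 had 0.29 ± 0.11 (adjusted p = 0.0741), and DESeq2 called it. The EIF6 orthologue (ENSBGRG00000009705) ran from 45.5 to 79.7 CPM in the Y-A group, from 50.4 to 76.1 CPM in the Y-E group and from 53.0 to 118 CPM in the Y-P group, with 0.29 ± 0.19 (adjusted p = 0.349).

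Late small-subunit factors were not called by edgeR in any comparison, while DESeq2 called NOB1 in pregnancy against estrus. Limma on FPKM and the fit with library size alone called RIOK2 and NOB1 higher there. Of all genes, limma called 15.6% and 16.5% higher (pseudocounts 0.1 and 1), and library size alone 12.4%. In that comparison all 3 reached an unadjusted p under 0.05, 2 higher and 1 lower, as did 29.3% of all genes in either direction. NOB1, the endonuclease of the last cut, ran from 34.4 to 38.8 CPM in the Y-A group, from 26.4 to 35.8 CPM in the Y-E group and from 29.3 to 48.4 CPM in the Y-P group, with a log2 fold change of 0.36 ± 0.12 (adjusted p = 0.0528). The atypical kinases RIOK2 and RIOK1 pointed in opposite directions: RIOK2 had 0.26 ± 0.12 (adjusted p = 0.141), and RIOK1 had −0.20 ± 0.09 (adjusted p = 0.133). RIOK1 was thus 1 of the 2 members lower at an unadjusted p under 0.05, TMEM120A being the other. RIOK1 overlaps CAGE1 and SSR1 on the other strand, and NOB1 overlaps WWP2.

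Nuclear export had 5 tested members and 0 calls by edgeR in any comparison. Of them, 2 were higher in pregnancy against estrus at an unadjusted p under 0.05, against 14.2% of all genes, and DESeq2 called NXT2. Limma on FPKM and the fit with library size alone called NXT2 and a RAN orthologue (ENSBGRG00000009117) higher there. Of all genes, limma called 15.6% and 16.5% higher (pseudocounts 0.1 and 1), and library size alone 12.4%. XPO1, the exportin of both subunits and of many other cargoes, ran from 168 to 218 CPM in the Y-A group, from 129 to 239 CPM in the Y-E group and from 102 to 247 CPM in the Y-P group. The Y-P group thus held the lowest and the highest of the 18 values, and the log2 fold change in pregnancy against estrus was 0.08 ± 0.18. The RAN orthologue on chromosome 16 (ENSBGRG00000009117), the GTPase that gives export its direction, had medians of 105, 89.9 and 111 CPM and 0.30 ± 0.14 in that comparison (adjusted p = 0.148). A second RAN orthologue on chromosome 7 (ENSBGRG00000015298) lay between 0 and 1.71 CPM.

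Of the 9 members named for another function, TMEM120A, a membrane protein of the nuclear envelope and the cell surface, fell in pregnancy against estrus. It ran from 23.3 to 36.5 CPM in the Y-A group (median 25.9), from 26.0 to 49.8 CPM in the Y-E group (median 40.0) and from 22.7 to 33.4 CPM in the Y-P group (median 27.8). The Y-E group was the highest, with overlapping ranges. The log2 fold change was −0.51 ± 0.16 (adjusted p = 0.0395), and in estrus against anestrus it was 0.49 ± 0.16 (adjusted p = 0.488), the smallest p of any member in that comparison. Without the TMM factors, that is with library size alone, the call in pregnancy against estrus was lost. VSTM2L had the largest fold change above 0 in pregnancy against anestrus, 1.32 ± 0.51 on the log2 scale, at 0.224 to 2.13 CPM in the Y-A group and 1.63 to 3.57 CPM in the Y-P group, and an adjusted p of 0.126. VWA8 and SLC27A1, a fatty acid transporter, were not called by edgeR or DESeq2, but limma on FPKM and the fit with library size alone called VWA8 higher in pregnancy against anestrus.

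Over all stages, 64 of the 87 tested members had their highest mean in the Y-P group, 14 in the Y-A group and 9 in the Y-E group. The lowest mean fell in the Y-E group for 57 members, in the Y-A group for 17 and in the Y-P group for 13. Single members passed the test in 0 cases between Y-E and Y-A, in 3 between Y-P and Y-A and in 16 between Y-P and Y-E, which is 18.4% of the members beside 14.4% of all genes for the last. The spread within a stage was similar, with a median coefficient of variation of 16.7% in the Y-A group, 16.8% in the Y-E group and 19.2% in the Y-P group.

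Other known ribosome biogenesis genes that the annotation does not place in the pathway were examined as 3 lists of 101 tested genes in all. In pregnancy against estrus, 15 of the 101 rose and 0 fell, against 5.77% and 8.68% of all genes, and in pregnancy against anestrus 7 rose and 0 fell, against 2.22% and 3.61%. Lower at an unadjusted p under 0.05 were 1 and 0 of them, against 15.1% and 11.8% of all genes, and lower by DESeq2 likewise 1 and 0. Of all 14508 genes, DESeq2 called 1608 and 838 lower in these 2 comparisons. In estrus against anestrus edgeR called 0 of the 101. At an unadjusted p under 0.05 there were 3, all lower, against 1.83% of all genes lower. Their median log2 fold changes were −0.09, 0.22 and 0.27 in estrus against anestrus, pregnancy vs. anestrus and pregnancy vs. estrus, beside −0.10, 0.16 and 0.26 for the members.

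LAS1L, the endonuclease that separates the spacer next to the large subunit's rRNA, averaged 137 ± 18.9 CPM (SD) in the Y-A group, 113 ± 17.4 CPM in the Y-E group and 191 ± 26.7 CPM in the Y-P group. It rose by 0.48 ± 0.12 in pregnancy against anestrus (adjusted p = 0.0289) and by 0.76 ± 0.12 in pregnancy against estrus (adjusted p = 0.000800). EXOSC10, the nuclear exonuclease of the exosome, rose by 0.42 ± 0.08 in pregnancy against estrus (adjusted p = 0.00246), and NGDN, a processome protein, by 0.57 ± 0.11 (adjusted p = 0.00282). NOC2L rose by 0.57 ± 0.13 in pregnancy against anestrus (adjusted p = 0.0198). Of the 13 exosome genes 3 rose in pregnancy against estrus, where 5.77% of all genes did. RNA polymerase I and its factors, 15 genes, had 0 calls by edgeR in any comparison. In pregnancy against estrus, 5 of the 15 were higher and 0 lower at an unadjusted p under 0.05, against 14.2% and 15.1% of all genes. DESeq2 called 2 of them higher there, against 8.12% of all genes. With library size alone 5 were called higher, against 12.4% of all genes, and with limma on log2(FPKM + 1) 4, against 16.5%. In pregnancy against anestrus, limma on log2(FPKM + 1) called 2 higher, against 13% of all genes.

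Markers of blood cell types also differed between the stages. The summed level of 10 T cell genes was 1679 to 1860 CPM in the Y-A group, 1671 to 1989 CPM in the Y-E group and 2000 to 3086 CPM in the Y-P group. Of the 10, 5 rose in pregnancy against estrus, where 5.77% of all genes did. A list of 9 neutrophil genes ran from 4592 to 10410 CPM in the Y-A group, from 5940 to 13780 CPM in the Y-E group and from 3577 to 6940 CPM in the Y-P group. Of the 9, 7 fell in pregnancy against estrus, where 8.68% of all genes did. Both lists thus changed between the stages in which most members were called, with T cell genes in the direction of the members and neutrophil genes in the opposite one.

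All 7 red cell genes fell in pregnancy against anestrus, where 3.61% of all genes did, and 4 of them in pregnancy against estrus, where 8.68% did. Of 4 platelet genes 2 fell in pregnancy against estrus, beside the same 8.68%. The summed levels of the platelet genes were 239 to 390 CPM in the Y-E group and 153 to 208 CPM in the Y-P group. The 7 proliferation genes had 238 to 280, 228 to 287 and 259 to 428 CPM in anestrus, estrus and pregnancy. Of these, 2 rose in pregnancy against estrus, where 5.77% of all genes did. B cell genes (8), monocyte genes (6) and cytotoxic genes (5) overlapped in all stages. In pregnancy against estrus 0, 0 and 1 were higher and 0, 1 and 0 lower, against 5.77% and 8.68% of all genes. No marker was at or under 3 counts in all libraries. The part of any of these cell types in the members' levels was not tested.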

How the data were processed

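Whole-blood mRNA was sequenced in 18 libraries. The authors trimmed the reads with cutadapt 1.9, aligned them with HISAT2 2.2.1 to the Ensembl yak genome, assembled transcripts with StringTie 2.1.6 and deposited FPKM values, scaled by the authors to exon length and mapped reads. The authors also deposited whole-number counts, not normalized; how these were made, and whether strand was used, is not given in the sources used here. Positions were copied from the annotation columns of that table.

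The counts were tested in R 4.3.3 with edgeR 4.0.16 (filterByExpr, TMM and the quasi-likelihood F test, with the stages as coefficients and the 18 libraries in 1 model), two-sided, with Benjamini-Hochberg adjustment over the 14508 tested genes. A member was called at an adjusted p under 0.05; the study's threshold, which adds a 2-fold change in either direction, is counted beside it. The SE is the log2 fold change divided by the root of the test's F value. CPM values use TMM library sizes. Detection was taken to begin above 3 counts, a floor that covers counting error only. Depth ranged from 30247267 to 48401076 counts. The labels do not say which libraries come from the same cow. The fit therefore takes repeated samples of 6 cows as separate, and its p-values measure the spread between libraries. Deviations from the stage means of same-numbered libraries correlated at 0.110 to 0.515 between Y-E and Y-A, so that the numbers were taken to pair these 2 groups. Not each same-numbered pair that includes Y-P correlated in this way, and pairing was left undecided there. The main fit does not use this pairing. The replicate block among the alternatives spans all 3 stages, so that no fit pairs only Y-E and Y-A. The fit was tested on simulated data.

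Alternatives were DESeq2 1.42.0, limma 3.58.1 on log2(FPKM + 1) and log2(FPKM + 0.1), library size alone, no filter, a filter of 10 counts in 6 libraries, removal of hemoglobin genes, the replicate block with and without Y-E replicate 6, and leaving out each library. Members, roles and lists were chosen with earlier results of these data known. Named are, in each comparison, the 5 higher and 5 lower members with the smallest p, the best-known proteins of each step and the most abundant of each role (47 members), and 3 higher and 3 lower genes of the added lists. UTP18, NXT2, RRP7A, TMEM203 and the other members outside this rule that the text names were picked after their values were seen, being called, shared in an orthology entry or part of a small count. Python 3.11.15 with pandas 2.3.3, numpy 2.4.6 and matplotlib 3.10.9 was used for counts and figures.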

Additional observations from a re-analysis of the deposited data

Results flagged for a closer look

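In 144 groups of 6 libraries (47 named members and the members' share of counts, in each of the 3 stages), 7 values stood apart from the other 5 libraries of their stage by more than Dixon's critical value of 0.625. Chance alone flags about 1 in 20 groups, and 7 of 144 is about that rate. In the Y-A group, the value of DKC1 in replicate 6, 70.6 CPM, was the lowest by a gap to 81.9 CPM, and RCL1 in the same library was the highest, 78.8 CPM beside 49.8 CPM. MDN1 was lowest in Y-A replicate 4, with 141 CPM beside 157 CPM, and NOB1 highest in Y-A replicate 3, with 38.8 CPM beside 34.7 CPM. In the Y-P group, TBL3 was highest in replicate 2, with 48.8 CPM beside 37.3 CPM, and so was the second RAN orthologue (ENSBGRG00000015298), with 0.944 CPM beside 0.275 CPM. RPP25L was highest in Y-P replicate 5, with 30.8 CPM beside 20.4 CPM. Y-A replicate 6 and Y-P replicate 2 each held 2 of the 7 values. Whether anything sets these libraries apart was not tested.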

How the results depend on the processing

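In estrus against anestrus, 0 members were called in each of the 27 other fits, and the median log2 fold change stayed between −0.13 and −0.07 in the fits without 1 library. Over all genes, the replicate block called 4 higher and 10 lower in this comparison and DESeq2 56 and 11, beside 0 and 3 in the main fit. In pregnancy against anestrus, the 2 higher members became 6 with DESeq2, 10 with library size alone and 16 with limma on FPKM at either pseudocount. With the replicate block they became 4, with or without Y-E replicate 6. Limma called 0 lower instead of 1. The share of all genes called higher also moved, from 2.22% to 4.67% with DESeq2, 7.41% with library size alone and 11.7% and 13% with limma (pseudocounts 0.1 and 1). It was 3.32% and 2.58% with the replicate block, with and without Y-E replicate 6. Without 1 library the member counts were 0 to 4 higher and 0 to 1 lower, while 0.921% to 2.86% of all genes were called higher. The median of 0.16 became 0.31 with library size alone and 0.35 and 0.33 with limma (pseudocounts 0.1 and 1), and ran from 0.10 to 0.19 without 1 library.

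In pregnancy against estrus, the 15 higher members became 29 with library size alone, 31 with limma at either pseudocount and 9 without a filter on low counts. The 1 lower member was called in none of these 4 fits (0 lower). The share of all genes called higher moved from 5.77% to 12.4% with library size alone and 15.6% and 16.5% with limma (0.1 and 1). Without a filter it was 3.15%. Without 1 library the member counts were 7 to 20 higher and 0 to 1 lower, while 3.25% to 6.5% of all genes were called higher. The median of 0.26 became 0.40 with library size alone and 0.43 and 0.37 with limma (0.1 and 1), and ran from 0.19 to 0.26 without 1 library. Of the 16 calls, 15 were kept with library size alone and limma, 16 with DESeq2 and the replicate block, and 9 without a filter. Same-numbered Y-P libraries correlated at −0.0492 to 0.369 with Y-A and −0.0544 to 0.400 with Y-E. The medians were 0.1365 and 0.137, beside −0.00838 and −0.0217 for different numbers. In each case 4 of 6 correlated best with their own number. Whether the numbers pair the Y-P libraries was therefore left undecided. The replicate block added GTPBP4 and VSTM2L (pregnancy vs. anestrus, adjusted p of 0.0271 and 0.0310, and 0.00950 to 0.154 and 0.0154 to 0.210 over the other settings) and WDR43 (pregnancy vs. estrus, 0.0492), and changed no other call. Over all genes, the share of calls that were higher moved from 38.1% to 80.6% (pregnancy vs. anestrus) and from 39.9% to 70.3% (pregnancy vs. estrus) with library size alone. Calls were not reversed in any fit, and why the counts differ between fits was not tested. The 4 members under 1 FPKM rest on few counts, and the second POP1 orthologue among them was not tested.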
